A study of Microhyla fissipes with 9 samples.

Results

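Among the unigenes of Microhyla fissipes tadpoles, 184 lay lower in every library exposed to a glyphosate-based herbicide (GBH) than in every control library, by at least 2 times, while still being detected in all 9 libraries. A unigene is a cluster of assembled transcripts that stands in for a gene where no genome is used. The 184 were chosen by their own FPKM values (fragment counts scaled to unigene length and to the size of the library): above 0 in all 9 libraries, a mean of at least 1 FPKM, and the lowest control at least 2 times the highest exposed library. They are 184 of 426250 unigenes in the table and 0.251% of the 73298 that met the first pair of conditions, here called detected unigenes. Since control and exposed values chose them, their fall against control is given as a description, and no test of it is used as support. The rule did not set either dose against the other, and the difference between doses was tested. It did cap every exposed value at both doses, so this difference is not wholly free of the choice.

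Microhyla fissipes is a small frog that breeds in farmland. Tadpoles at Gosner stage 30 lived for 10 days in 0 mg/L GBH (the controls), 60 mg/L GBH or 90 mg/L GBH, with 5 containers of 20 tadpoles per dose, and each dose was represented by 3 libraries of poly-A selected RNA from whole tissue. Animals at 120 mg/L are not analysed here. The container and the number of animals behind a library are not named in the labels, so differences between libraries of a dose may be technical in part.

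Glyphosate blocks the shikimate pathway, by which plants and many microbes make aromatic amino acids and which animals lack. Commercial formulations add surfactants, and toxicity of such mixtures to gill-breathing larvae is well known. A whole tadpole mixes gut, muscle, skin, liver, gill and nervous tissue, and its transcript pool is dominated by the products of a small number of abundant genes. In such bulk samples fewer cells of a type and less RNA per cell cannot be told apart. The table paired no unigene with a gene name, sequence or position, so the unigenes are described by identifier, level and pattern, and no function is given to any of them.

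Each library listed 213161 to 256232 unigenes above 0 FPKM. The number of reads was not given, and estimated relative depth was 0.771 to 1.09 of that of control replicate 1. The estimate was the inverse of the most common ratio of FPKM to that library among unigenes of low FPKM. On the first principal component of log2(FPKM + 1), replicate 2 of the controls scored 303.5, replicate 2 of 60 mg/L scored 261.0 and replicate 3 of 90 mg/L scored 160.3, whereas the remaining 6 scored from -174.5 to -62.7. The 3 high-scoring libraries, 1 of each dose, stand apart from the rest, and values without them are given where they bear on a result. The typical detected unigene was higher in exposed libraries than in controls, by a median log2 ratio of mean FPKM of 0.27 at 60 mg/L and 0.26 at 90 mg/L. The fall of the 184 ran against that shift, and scaling each library by its median ratio widened it.

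The lowered unigenes stood several times below their control level at either dose. Summed over the 184, the controls held 45747.95, 52009.89 and 46770.32 FPKM, the 60 mg/L libraries 8026.51, 9387.15 and 7784.06 FPKM, and the 90 mg/L libraries 6930.75, 7013.68 and 11047.63 FPKM. All exposed sums lay far below all control sums, as the rule requires, and GBH 90 mg/L replicate 3 was the highest exposed library. As a share of all FPKM in a library, the 184 held 1.65% ± 0.0784 in controls, 0.296% ± 0.0180 at 60 mg/L and 0.289% ± 0.0734 at 90 mg/L (SD, n = 3 each). The median of a unigene's mean was 20.1% of its control mean at 60 mg/L, with a range of 0.742% to 45.4%, and 18.3% at 90 mg/L, with a range of 0.273% to 40.8%. On the log2 scale these medians were -2.31 and -2.45.

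**Figure D1:**
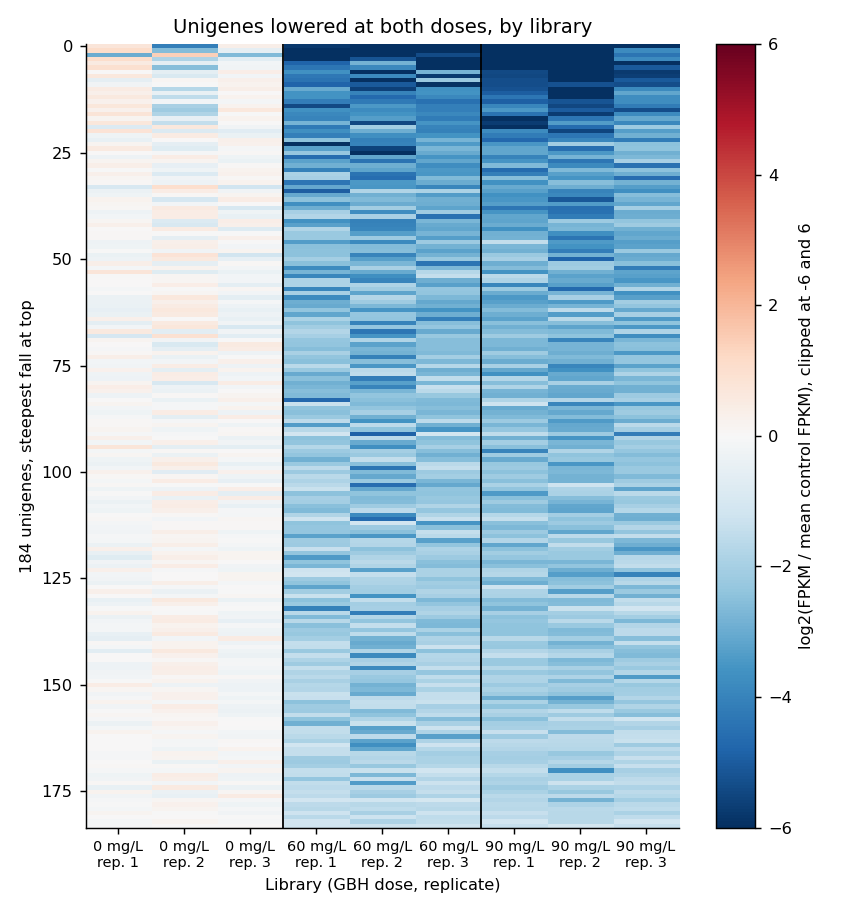
Each of the 184 rows is a lowered unigene and each column a library, ordered by GBH dose. Colour gives log2 of FPKM over the mean control FPKM, from blue (lower) to red (higher), clipped at -6 and 6. All 6 exposed columns are blue in every row. Controls differ widely in 12 rows, where the highest control is at least 4 times the lowest, and in 10 of these control replicate 2 is the lowest. Over all 184 rows control replicate 2 is the lowest control in 65 and the highest in 90.

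The median fall was of like size from library to library, which is in part set by the rule, since it capped all 6 exposed values. The median over the 184 of log2 FPKM over the control mean was -2.31, -2.68 and -2.41 in GBH 60 mg/L replicates 1, 2 and 3, and -2.50, -2.74 and -2.38 in GBH 90 mg/L replicates 1, 2 and 3. Over all detected unigenes the same median was 0.19 to 0.26 in the 6 exposed libraries, a gap that the rule also sets in part. Both doses spanned nearly the same range, and their libraries interleaved: the shallowest median was that of GBH 60 mg/L replicate 1 and the deepest that of GBH 90 mg/L replicate 2. The highest of the 6 exposed values, which decides whether a unigene meets the rule, was most often that of GBH 60 mg/L replicate 1 (50 unigenes) or GBH 90 mg/L replicate 3 (43), and least often that of GBH 90 mg/L replicate 1 (14).

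**Figure D2:**
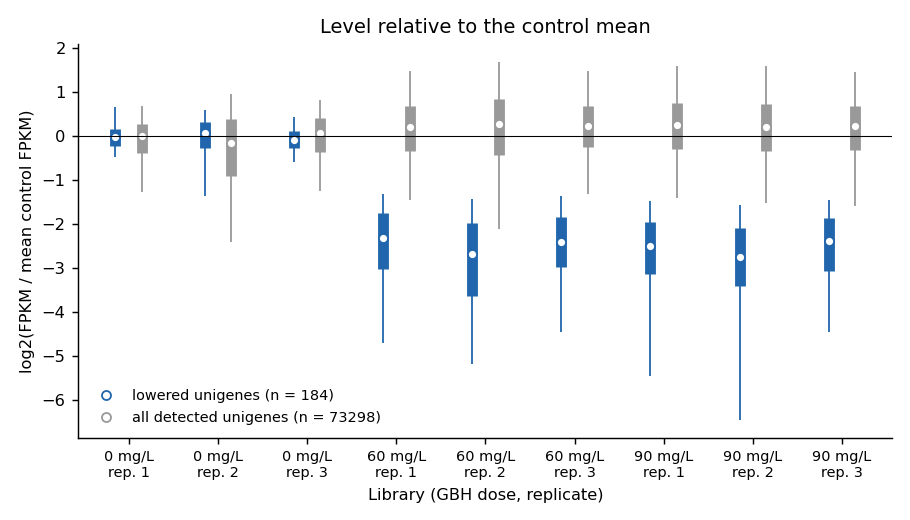
Vertical axis, log2 of FPKM over the mean control FPKM; horizontal axis, library by GBH dose. Blue marks the 184 lowered unigenes and grey the 73298 detected unigenes; circles are medians, thick bars the middle 50% and thin lines the middle 90%. Blue medians lie between -2.74 and -2.31 in exposed libraries, where grey medians lie between 0.19 and 0.26.

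The rule was also applied to each other choice of 3 of the 9 libraries, counting the unigenes whose lowest value in the chosen libraries was at least 2 times the highest value in the remaining 6. Of the 83 other choices, 73 gave 10 unigenes or fewer, 14 of these gave 0, and the median was 2. The 3 libraries of 60 mg/L gave 3 unigenes and the 3 of 90 mg/L gave 9. A single choice gave more than the controls: the 3 libraries that stand apart had 472 unigenes. Control replicates 1 and 3 with GBH 60 mg/L replicate 1 came next after the controls, with 72. The choices overlap in their libraries and are therefore not independent, and no p is drawn from them. With a bound of 3 times in place of 2, the controls kept 57 unigenes and the highest other choice, again the 3 libraries that stand apart, had 22. At the bound of 2 those 3 libraries stayed ahead on other scales. They had 443 against 329 for the controls after median-ratio scaling, and 527 against 260 after quantile normalization.

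**Figure D3:**
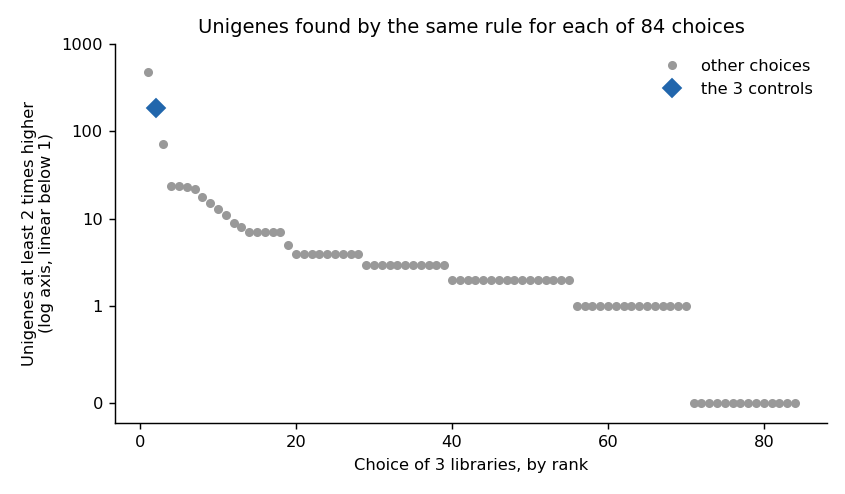
Each point is 1 of the 84 choices of 3 libraries, ranked along the horizontal axis; the vertical axis, logarithmic above 1, counts unigenes at least 2 times higher in all chosen libraries than in all others. The 3 controls (blue diamond) stand second with 184, after 472 for the libraries that stand apart.

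The mirrored rule, with the lowest exposed library at least 2 times the highest control, gave 204 unigenes, or 0.278% of the detected ones. Mirrored in the same way, the 3 libraries that stand apart had 1351 unigenes, and the controls again stood second. The median over the 83 other choices was 10. The balance of 184 lowered and 204 raised turned with the scale: after median-ratio scaling there were 329 lowered and 84 raised, and after quantile normalization 260 lowered and 92 raised. Controls limited the number unequally. Without control replicate 2 the rule found 475 lowered unigenes, and without the 3 libraries that stand apart 701, both with fewer values to meet. The other single libraries gave 201 to 262 when left out.

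The lowered unigenes were abundant in controls. Their control mean had a median of 49.8 FPKM, between 2.46 and 3824 FPKM, against a median of 4.08 FPKM over all detected unigenes. A control mean of at least 100 FPKM was found in 66 of the 184 (35.9%) and in 3.27% of the detected unigenes. At least 1000 FPKM was reached by 15 of the 184 (8.15%) and by 0.473% of the detected ones. The rule asks for controls well above exposed values that are themselves above 0, so a high control level is in part set by the choice. The median of the mean at 60 mg/L was 7.81 FPKM in the 184 and 4.87 FPKM in the detected unigenes. At 90 mg/L these medians were 8.7 and 4.77 FPKM. Low unigenes vary more near the floor and meet a bound on all 9 values less easily. How far the rule itself favours abundant unigenes was not tested. Within the 184, the depth of fall differed little by control level: the 61 lowest, the next 61 and the 62 highest by control mean had median log2 falls of -2.23, -2.43 and -2.35 at 60 mg/L and of -2.38, -2.46 and -2.49 at 90 mg/L.

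The 6 most abundant lowered unigenes had control means of 1853 FPKM and more. Cluster-47276.167089, the highest, stood at 2859.19, 5489.37 and 3123.36 FPKM in controls, 442.78, 766.96 and 503.33 FPKM at 60 mg/L and 504.73, 370.96 and 961.1 FPKM at 90 mg/L. In it the library that stands apart was the highest of each dose. Cluster-47276.165140 stood at 2465.71, 2685.54 and 2536.97 FPKM in controls, 475.28, 743.55 and 425.38 FPKM at 60 mg/L and 455.74, 909.01 and 1111.37 FPKM at 90 mg/L. Its controls were nearly level, while its 90 mg/L libraries spread over more than the range of its 60 mg/L libraries. Cluster-47276.167565 stood at 1781.19, 3035.24 and 1925.57 FPKM in controls, 332.53, 652.86 and 364.42 FPKM at 60 mg/L and 401.33, 432.42 and 804.74 FPKM at 90 mg/L. It repeated the order of libraries seen in Cluster-47276.167089, save that GBH 90 mg/L replicates 1 and 2 changed places.

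Cluster-47276.168232 stood at 1242.32, 3462.8 and 1902.72 FPKM in controls, 117.08, 521.44 and 141.99 FPKM at 60 mg/L and 25.35, 91.11 and 488.62 FPKM at 90 mg/L. Its highest exposed libraries were again replicate 2 of 60 mg/L and replicate 3 of 90 mg/L, and the other 4 exposed values were below 142 FPKM. Cluster-47276.172772 stood at 1696.77, 1937.6 and 2233.37 FPKM in controls, 68.99, 59.89 and 32.56 FPKM at 60 mg/L and 49.13, 51.66 and 48.8 FPKM at 90 mg/L. All its exposed values were low and close to each other, without a high library. Cluster-47276.170417 stood at 1807.96, 2497.45 and 1252.4 FPKM in controls, 338.52, 346.68 and 346.51 FPKM at 60 mg/L and 174.45, 497.27 and 607.04 FPKM at 90 mg/L. Its 60 mg/L libraries were nearly equal and lay inside the range of its 90 mg/L libraries.

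The 15 lowered unigenes of at least 1000 FPKM in controls had 4.29 to 36.3 times lower means at 60 mg/L (median 5.39) and 3.11 to 39.2 times lower means at 90 mg/L (median 6.25). In 8 of these 15 the 3 libraries that stand apart were each the highest of their dose, against 21 of the other 169 lowered unigenes and 19.1% of all detected unigenes. Over all 184 this held in 29 (15.8%). The 3 were each the lowest of their dose in 8 of the 184 (4.35%), against 20.8% of the detected unigenes. The detected unigenes were not matched for level. The share of either pattern in the fall was not tested. Without these 3 libraries the shallowest log2 ratio of the remaining means was -1.06 for 60 mg/L and -1.24 for 90 mg/L. The bound of 2 times holds for any part of the libraries, so a fall in all 184 was fixed by the rule. A 4-fold or larger fall was seen in 139 unigenes at 60 mg/L and 152 at 90 mg/L with all libraries, and in 116 and 137 without those 3.

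The widest gap between the lowest control and the highest exposed library was that of Cluster-47276.172772, whose lowest control was 24.6 times its highest exposed value. A gap of at least 3 times was found in 57 of the 184, of at least 4 times in 23 and of at least 8 times in 2, and its median was 2.51 times. Cluster-47276.171549, the next, stood at 417.86, 305.41 and 319.05 FPKM in controls, 19.73, 18.44 and 15.6 FPKM at 60 mg/L and 11.78, 9.59 and 26.56 FPKM at 90 mg/L. Cluster-47276.163013 stood at 819.65, 281.76 and 471.23 FPKM in controls, 26.8, 37.11 and 9.79 FPKM at 60 mg/L and 11.87, 3.76 and 10.53 FPKM at 90 mg/L. In the last of these the 90 mg/L values were the lower ones, but GBH 60 mg/L replicate 3 lay among them.

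Wide gaps were not restricted to abundant unigenes. Cluster-47276.198033 stood at 20.25, 16.33 and 18.98 FPKM in controls, 1.43, 2.33 and 2.44 FPKM at 60 mg/L and 1.87, 1.82 and 2.13 FPKM at 90 mg/L. Its 3 groups were each narrow and both doses overlapped fully. Cluster-47276.184497 stood at 44.47, 26.9 and 37.47 FPKM in controls, 3.02, 2.25 and 3.06 FPKM at 60 mg/L and 1.18, 0.16 and 4.22 FPKM at 90 mg/L. Cluster-47276.117522 stood at 37.34, 23.61 and 38.05 FPKM in controls, 2.15, 3.3 and 1.8 FPKM at 60 mg/L and 0.49, 1.62 and 3.97 FPKM at 90 mg/L. In both, the 90 mg/L libraries spread from the lowest to the highest of the exposed values, with GBH 90 mg/L replicate 3 at the top.

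The bound of 2 had 3 unigenes just inside it and 3 just outside it that are given here. Inside, Cluster-47276.177681, Cluster-47276.166948 and Cluster-47276.176554 had ratios of lowest control to highest exposed library of 2.004 each, from 26.21 over 13.08, 13.57 over 6.77 and 45.2 over 22.55 FPKM. Outside, Cluster-47276.166880, Cluster-47276.162554 and Cluster-47276.229233 had ratios of 1.997, 1.995 and 1.994, from 1213.42 over 607.69, 8.52 over 4.27 and 71.16 over 35.68 FPKM. Members and non-members near the bound thus differ by less than 1 part in 100 in that ratio. A bound of 1.5 times would have taken in 390 unigenes.

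**Figure D4:**
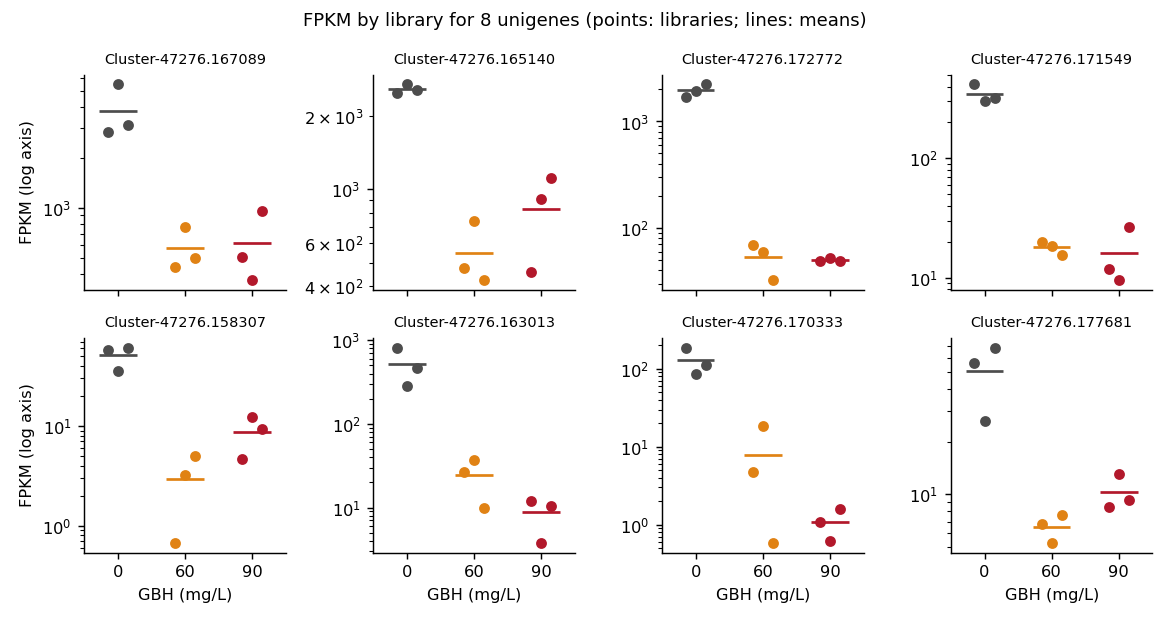
FPKM on a logarithmic axis against GBH dose for 8 of the named unigenes; each point is a library and each line the mean of 3. In Cluster-47276.172772 the exposed points lie close together, between 32.56 and 68.99 FPKM, while in Cluster-47276.170333 those at 60 mg/L run from 0.58 to 18.22 FPKM.

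Control values ranged from close together to far apart among the lowered unigenes, with a median ratio of highest to lowest control of 1.55. The highest control was under 1.5 times the lowest in 81 of the 184 and at least 2 times it in 42. It was at least 4 times the lowest in 12, and in 10 of these 12 control replicate 2 was the lowest. Over all 184, control replicate 2 was the lowest control in 65 and the highest in 90. Cluster-47276.166250 stood at 399.21, 13.97 and 307.78 FPKM in controls, 4.28, 0.21 and 0.86 FPKM at 60 mg/L and 1.25, 0.45 and 0.27 FPKM at 90 mg/L. It had the deepest falls of all at both doses, 134.8 and 366.0 times by the means, while control replicate 2 was 28.6 times below control replicate 1. Cluster-47276.165803 went the other way, with 3.96, 84.63 and 5.03 FPKM in controls, 0.1, 0.27 and 0.75 FPKM at 60 mg/L and 0.33, 0.48 and 1.52 FPKM at 90 mg/L. Its control mean rests on control replicate 2. Both of these unigenes were chosen for mention after their values were seen.

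Means at least 16 times below control at each dose were found in 10 unigenes, and in 8 of these 10 control replicate 2 was the lowest control. Besides those already described they include Cluster-47276.166008, at 1440.41, 193.57 and 448.09 FPKM in controls, 6.35, 18.84 and 10.2 FPKM at 60 mg/L and 7.11, 2.59 and 50.14 FPKM at 90 mg/L. They also include Cluster-47276.168535, at 937.9, 72.64 and 300.85 FPKM in controls, 4.16, 3.91 and 6.6 FPKM at 60 mg/L and 1.9, 1.18 and 32.07 FPKM at 90 mg/L. In both, GBH 90 mg/L replicate 3 was the highest exposed library by a wide margin, and control replicate 1 the highest control. These 2 were also picked after their values were seen.

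The size of the fall was then compared between doses, a difference in which the controls cancel. The rule capped the values of both doses, which may limit how far they differ among the 184. The median log2 ratio of mean FPKM at 90 mg/L over that at 60 mg/L was -0.13 in the 184, with the middle 50% between -0.44 and 0.10, against a median of -0.02 over all detected unigenes. The mean at 90 mg/L was below that at 60 mg/L in 119 of the 184 (64.7%), against 52.0% of the detected unigenes. Leaving out single exposed libraries gave 101 to 131, and leaving out the 3 libraries that stand apart 138. The median stayed negative but moved with the libraries: with 1 library of 90 mg/L left out it was -0.04 (replicate 2) or -0.26 (replicate 3), with replicate 1 of 60 mg/L left out it was -0.08, and it was -0.32 without the 3 libraries that stand apart. On log2(FPKM + 1) it was -0.09. Library medians of log2 FPKM over the dose mean had an SD of 0.08 at 60 mg/L and 0.19 at 90 mg/L. With their variances added these give 0.21, the spread of a difference between 1 library of each dose. The median of -0.13 compares means of 3 libraries per dose, so 0.21 is not its error. Whether that median differs from 0 was not tested. Both doses lay within 2-fold of each other in 167 of the 184 (90.8%), compared with 94.9% of the detected unigenes. Of the remaining 17, 13 were more than 2-fold lower at 90 mg/L and 4 more than 2-fold higher.

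**Figure D5:**
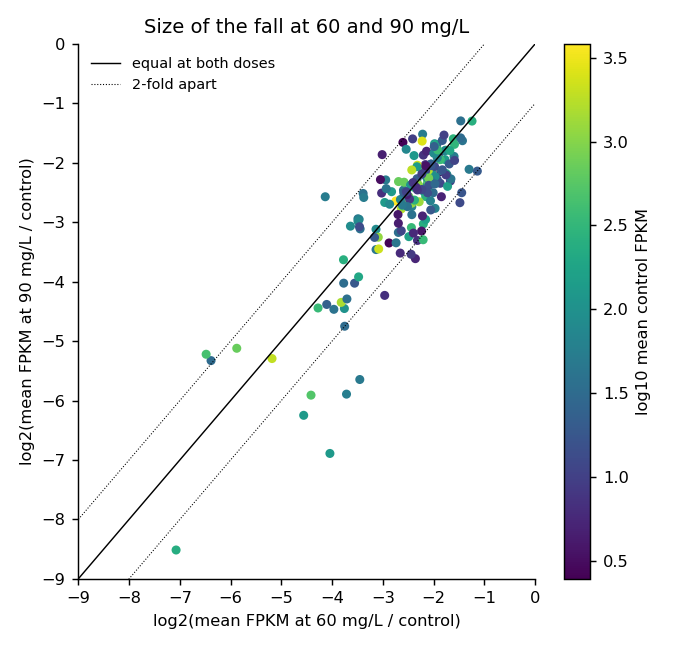
Each point is 1 of the 184 unigenes, with log2 of mean FPKM over control at 60 mg/L on the horizontal axis and at 90 mg/L on the vertical axis, coloured by log10 of mean control FPKM. Both axes use the same controls, so points lie along the diagonal in part for that reason; 119 points are below the line of equality and 17 outside the dotted lines of a 2-fold difference.

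The test of 90 against 60 mg/L found no lowered unigene past the threshold. In limma, fitted to log2(FPKM + 1) of all 147577 unigenes that averaged 1 FPKM or more, 0 of the 184 had a Benjamini-Hochberg adjusted p under 0.05, against 0.044% of all tested unigenes and 0% of the detected ones. At an unadjusted p under 0.05 by limma there were 5 of the 184, against 5555 of the 147577 tested unigenes. Of these 5, 4 were lower at 90 mg/L. The lowest unadjusted p was 0.0160 and every adjusted p was 1 (limma). The 95% intervals of the log2 difference reached a median of 0.91 to either side of the estimate, between 0.43 and 2.63, and lay wholly within -1 and 1 for 54 of the 184. For the other 130 a 2-fold difference between doses is inside the interval, so the test does not show that the doses act alike.

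By plain order of the values, all 90 mg/L libraries lay below all 60 mg/L libraries in 8 of the 184 (4.35%), against 2.9% of the detected unigenes. They lay above all 60 mg/L libraries in 4 (2.17%), against 3.09%. Both shares are near those of the detected unigenes.

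In the limma fit, the largest positive differences of 90 minus 60 mg/L on the log2 scale were those of 3 unigenes. Cluster-47276.158307 stood at 4.67, 12.18 and 9.38 FPKM at 90 mg/L, against 0.67, 3.25 and 4.95 FPKM at 60 mg/L, a fitted difference of 1.40 on the log2 scale (SE 0.53, adjusted p = 1 by limma). Only GBH 60 mg/L replicate 3 overlapped the 90 mg/L values. Cluster-47276.144372 stood at 13.44, 25.01 and 26.43 FPKM at 90 mg/L, against 7.87, 6.52 and 23.71 FPKM at 60 mg/L, a log2 difference of 0.88 (SE 0.47). Cluster-47276.160779 stood at 4.32, 8.49 and 7.55 FPKM at 90 mg/L, against 3.09, 2.3 and 5.73 FPKM at 60 mg/L, a log2 difference of 0.75 (SE 0.44). In both the doses overlapped. Their controls were 58.52, 36.02 and 61.3 FPKM for Cluster-47276.158307, 69.75, 81.4 and 70.43 FPKM for Cluster-47276.144372 and 42.52, 22 and 51.92 FPKM for Cluster-47276.160779.

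Negative differences of the largest size in the limma fit were those of Cluster-47276.170333, Cluster-47276.163013 and Cluster-47276.165486. By the log2 ratio of means, Cluster-47276.185337 (-2.19) and Cluster-47276.165591 (-2.18) were lower than Cluster-47276.163013 (-1.49) and Cluster-47276.165486 (-1.69). Cluster-47276.170333 stood at 1.08, 0.61 and 1.57 FPKM at 90 mg/L, against 4.67, 18.22 and 0.58 FPKM at 60 mg/L, a fitted difference of -1.44 on the log2 scale (SE 0.79, adjusted p = 1 by limma). GBH 60 mg/L replicate 3 was the lowest of these 6 values, so the groups overlapped. Cluster-47276.163013, whose values are given above, had a log2 difference of -1.34 (SE 0.60). Cluster-47276.165486 stood at 0.62, 0.5 and 4.03 FPKM at 90 mg/L, against 6.4, 8.88 and 1.33 FPKM at 60 mg/L, a log2 difference of -1.27 (SE 0.93). The controls were 188.05, 85.15 and 113.64 FPKM for Cluster-47276.170333 and 255.18, 22.33 and 114.2 FPKM for Cluster-47276.165486, far above both doses.

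The lowest unadjusted p was that of Cluster-47276.183494. This unigene, singled out after its values were seen, stood at 5.58, 2.69 and 4.71 FPKM at 90 mg/L, against 8.55, 8.35 and 9.09 FPKM at 60 mg/L, with 18.39, 20.41 and 18.39 FPKM in controls. The groups did not overlap, and the levels stepped down from control to 60 and to 90 mg/L. Its log2 difference of 90 minus 60 mg/L was -0.90 (SE 0.30), with an adjusted p of 1 by limma. Among the 6 most abundant unigenes the difference of 90 minus 60 mg/L was 0.02 (SE 0.40) in Cluster-47276.167089, 0.54 (SE 0.34) in Cluster-47276.165140, 0.27 (SE 0.37) in Cluster-47276.167565, -0.96 (SE 1.0) in Cluster-47276.168232, -0.04 (SE 0.29) in Cluster-47276.172772 and 0.12 (SE 0.45) in Cluster-47276.170417, each with an adjusted p of 1 by limma.

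Within a dose, the lowered unigenes were steadier in controls than the detected unigenes were. The SD of log2 FPKM over the 3 libraries had a median of 0.33 in controls, 0.58 at 60 mg/L and 0.54 at 90 mg/L in the 184, and of 0.67, 0.58 and 0.48 in the detected unigenes. A bound on the lowest control favours even controls, so the first of these values is in part set by the rule. The 184 also had higher control levels than the detected unigenes, and the comparison was not matched for level. Each exposed library had 19 to 31 of the 184 under 1 FPKM, and no value lay under 0.1 FPKM.

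The same fit, read for each dose against control, called a fall at 60 mg/L in 41 of the 184, where 0.148% of the tested unigenes were called, and at 90 mg/L in 54, where 0.173% were. The rule used these contrasts and both share the controls, so nothing is read from these counts. When replicate number entered limma as a block, 0 of the 184 were called at 60 mg/L. That fit called 0 of the 147577 unigenes at this dose, in either direction, so the 0 is not particular to the 184. At an unadjusted p under 0.05 by that fit of limma there were 184, against 10940 of the 147577 tested unigenes. The rule chose the 184 by this same contrast, so that count was largely set in advance and nothing is read from it. Without control replicate 1, falls were called at 60 mg/L in 10 of the 184, of 201 falls among all 147577 tested unigenes. At 90 mg/L there were then 16, of 231. Without control replicate 3 the calls were 14, of 278, and 18, of 272. At 60 mg/L they were 20, 19 and 24 without GBH 60 mg/L replicate 1 or 3 or GBH 90 mg/L replicate 1. All tested unigenes then had 185, 183 and 183 falls. At 90 mg/L the calls in the 184 were 28, 29, 29 and 18 without GBH 60 mg/L replicate 1 or 3 or GBH 90 mg/L replicate 1 or 2. All tested unigenes then had 219, 228, 166 and 174 falls.

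The condition of detection in all 9 libraries divides a larger group. With the same bound and mean and every control above 0, a further 405 unigenes were listed at 0 in 1 to 6 exposed libraries, 589 with the 184. Of these 405, 23 were at 0 in 1 exposed library, 19 in 2, 42 in 3, 73 in 4, 81 in 5 and 167 in all 6. The median control mean was 49.8 FPKM in the 184 and 5.99 FPKM in the 167. Detection in all 6 exposed libraries favours unigenes with high control values, so this difference is in part set by the split. An exact 0 may also be a failed estimate, so these unigenes are only said to be listed at 0.

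Whether each lowered unigene is a separate gene was not tested. The identifiers of 179 of the 184 (97.3%) began with Cluster-47276, as did 98.1% of the detected unigenes, and what that shared prefix stands for is not given in the sources used here. Neighbouring numbers occurred: Cluster-47276.135445, Cluster-47276.135446 and Cluster-47276.135447 had control means of 33.2, 42.9 and 48.9 FPKM and log2 falls at 90 mg/L of -2.44, -2.46 and -2.38. Cluster-47276.205315 and Cluster-47276.205316 had control means of 40.7 and 49.2 FPKM and log2 falls at 90 mg/L of -2.74 and -2.71. Cluster-47276.163214 and Cluster-47276.163215 had control means of 32.5 and 40.9 FPKM and falls of -4.75 and -4.47. Other neighbours were further apart. Cluster-47276.173569 and Cluster-47276.173570 had control means of 48.7 and 188.1 FPKM and falls of -2.30 and -1.69, and Cluster-47276.226680 and Cluster-47276.226681 had 4.74 and 7.91 FPKM and falls of -1.86 and -2.33. Whether neighbours share sequence was not tested either, and the 184 are a count of unigenes and not of genes.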

How the data were processed

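Per the labels' protocols, Trizol RNA was poly-A selected, fragmented and read from both ends on an Illumina HiSeq. A single table was deposited by the authors, of FPKM per unigene and library, with 2 decimals. Assembler, aligner and counter: not given in the sources used here. No sampling error was given with the FPKM values, and a shift in abundant transcripts moves all others.

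The rule was applied to the FPKM as deposited, and columns were matched to samples by title. Falls are log2 ratios of mean FPKM. limma 3.58.1 (R 4.3.3, data.table version 1.17.8) was fitted to log2(FPKM + 1) of 147577 unigenes averaging 1 FPKM or more, with 1 mean per dose, a trend, and Benjamini-Hochberg adjustment over all of them; the script was tested on simulated data. Differences from this fit, on the log2(FPKM + 1) scale, understate changes of low unigenes. The members, and the lists named, were chosen with earlier results of these data known. Named were the 6 highest control means, the 6 widest gaps, the 3 largest limma differences between doses in each direction, and the 3 unigenes on either side of the bound.

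Same-numbered libraries of 60 and 0 mg/L deviated together from their group means (correlations 0.104, 0.327 and 0.114), all past the bound of 0.1 fixed for pairing, so the blocked count is given for that comparison. Libraries of unlike number reached similar values: 0.134 for GBH 60 mg/L replicate 1 with control replicate 3, and 0.0932 for GBH 60 mg/L replicate 3 with control replicate 1. The remaining pairs of unlike number were negative, and the value of 0.327 joins libraries that stand apart. What a replicate number marks is not stated in the labels. Tables were handled with pandas 2.3.3 and NumPy 2.4.6 in Python 3.11.15, and figures drawn with matplotlib 3.10.9.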

Additional observations from a re-analysis of the deposited data

How the results depend on the processing

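The number of lowered unigenes, 184, moved with the bound, the scale and the libraries used. There were 390 with a bound of 1.5 times, 57 with 3 times, 496 with values at 0 admitted on FPKM + 1, 329 after median-ratio scaling and 701 without the 3 libraries that stand apart. Leaving out single libraries gave 201 to 475. The mirrored rule gave 84 after median-ratio scaling and 92 after quantile normalization. The highest other choice was 22 at 3 times, 443 after median-ratio scaling and 527 after quantile normalization. The median log2 fall at 60 mg/L was -2.12 on log2(FPKM + 1), -2.68 after median-ratio scaling, -2.45 after quantile normalization and -2.22 without the 3 libraries that stand apart, and -2.37 to -2.19 without single libraries. At 90 mg/L it was -2.24 on log2(FPKM + 1), -2.82 after median-ratio scaling and -2.52 to -2.35 without single libraries. The rule used the contrasts with control, so nothing is read from calls in them. Calls at 60 and 90 mg/L against control are given beside the falls called among all unigenes of the same fit. With no pseudocount they were 12 and 26, of 12 and 27 among 73298 unigenes. With no minimum mean they were 21 and 31, of 211 and 225 among 387207. Without a trend they were 20 and 28, of 262 and 280. After median-ratio scaling they were 64 and 82, of 294 and 345. In the 6 compared libraries alone they were 0 and 1, of 0 and 9. At 60 mg/L they were 16, of 16, among detected unigenes alone. Under the replicate block they were 0 and 1, of 0 and 7. Without single libraries they were 10 to 39 and 16 to 67, where 183 to 553 and 166 to 600 falls were called in all. The causes were not tested.

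Calls of 90 against 60 mg/L stayed at 0 under the 21 alternatives run with limma, the replicate block included (1 to 21 of the 184 at an unadjusted p under 0.05), and the named unigenes' adjusted p was 0.611 to 1. The count of 1 came from the compared groups alone, where 4376 of the 147577 tested unigenes were under 0.05 by limma. The count of 21 came without the 3 libraries that stand apart, where 9061 were. Over all tested unigenes, the 21 alternatives called 0 to 169 rises and 0 to 371 falls. Same-numbered libraries of 90 and 60 mg/L correlated at 0.101, -0.0681 and -0.112, and those of 90 and 0 mg/L at 0.105, -0.0586 and -0.173. Not all of either set passed the bound of 0.1 fixed for pairing. These values cannot show whether the numbers mark pairs in the design. The sign of the difference of 90 minus 60 mg/L turned in 9 named unigenes. Without single libraries it ran from -0.36 to 0.33 in Cluster-47276.167089, -0.043 to 0.57 in Cluster-47276.167565, -2.07 to 0.040 in Cluster-47276.168232, -0.36 to 0.17 in Cluster-47276.172772, -0.22 to 0.67 in Cluster-47276.170417, -0.20 to 0.046 in Cluster-47276.198033, -0.77 to 0.10 in Cluster-47276.117522, -0.61 to 0.16 in Cluster-47276.166948 and -0.26 to 0.46 in Cluster-47276.176554. Without the 3 libraries that stand apart it was -0.13 in Cluster-47276.167089, 0.084 in Cluster-47276.172772 and -0.22 in Cluster-47276.170417, and after quantile normalization -0.0006 in Cluster-47276.167089.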
